A study of Gasterosteus aculeatus with 16 samples.

Results

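The respiratory chain of the mitochondrion passes electrons from NADH through complex I (NADH dehydrogenase), complex III (the cytochrome bc1 complex) and complex IV (cytochrome c oxidase) to oxygen, and uses the energy to pump protons across the inner membrane. Its complexes are built from subunits of both genomes. The mitochondrial genome encodes catalytic core subunits of these complexes, while most of the remaining subunits are encoded in the nucleus, translated in the cytosol and imported. Described here are 10 nuclear genes for such subunits among the 17440 genes with logCPM values, in whole stickleback embryos. They are 4 genes for complex I (NDUFB8, NDUFB9, NDUFA7 and NDUFAB1), 1 gene for complex III (UQCRQ) and 5 genes for complex IV (COX4I2, COX5B, COX6A2, COX7C and NDUFA4 (1 of 2), whose protein was first assigned to complex I).

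The genes were chosen by name from the list of genes that the study called higher in embryos of predator-exposed mothers in these same clutches. NDUFB8, NDUFA7, UQCRQ, COX5B and COX4I2 were on that list from both edgeR and Cuffdiff, NDUFA4 (1 of 2) and COX7C from edgeR alone, and NDUFB9, NDUFAB1 and COX6A2 from Cuffdiff alone. Their direction between the groups was therefore fixed by the choice on the scale of the listing program (logCPM for edgeR, FPKM for Cuffdiff). On the other scale it was not independent of the choice, since both scales come from the same libraries. The differences between groups below are given as a description, with no test. All 10 genes had a value in every clutch on both deposited scales. Subunit genes that the study's list did not name were not analysed here, so the 10 genes do not stand for the whole respiratory chain.

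Embryos of Gasterosteus aculeatus were collected at 3 days post-fertilization, and each library held RNA of pooled whole embryos of a single mother. The 8 maternally-stressed clutches came from females chased daily with a model sculpin, and the 8 control clutches from females that were not chased. Eggs of both groups were fertilized in vitro with sperm from dissected testes. Whole tanks of females were exposed or not, and which mothers shared a tank is not stated, so clutches counted as independent here. Control clutches 15_14, 15_2 and 15_5 share the first number of their names, as do control clutches 5_14 and 5_21. What that number means is not stated. If clutches of a tank were alike, the standard errors and adjusted p-values below would be too small, which was not tested. A pooled whole embryo cannot tell more cells of a type from more RNA per cell.

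Depth ran from 8950867 to 12765406 reads within genes. Genes of the mitochondrial genome took 0.646% to 1.89% of these reads among maternally-stressed clutches and 0.569% to 0.840% in control embryos. The mean of 27 structured non-coding RNAs, given as a z-score, was above 0 in 6 clutches, of which 5 were maternally-stressed (10_5, 17_10, 24_28, 26_28 and 8_10) and 1 was control (15_2). The study called many small nucleolar RNAs higher in embryos of exposed mothers in these same clutches. This split may therefore not be independent of the study's contrast, and it is given as a description. Marker genes for muscle, blood and lens that the study names were detected in every clutch (0 of these genes at 0).

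On FPKM, which is per length, all 10 subunit genes were strongly expressed. The order below holds for FPKM alone, because the ratio of FPKM to CPM differed widely among the genes. Its median in control embryos was 11.9 for COX7C, 5.83 for UQCRQ and 0.785 for NDUFA4 (1 of 2). By reads NDUFA4 (1 of 2) had a mean of 413 CPM, COX7C 203 CPM and UQCRQ 93.0 CPM. The order ran from COX7C, a small subunit of cytochrome c oxidase, with 2266 ± 231 FPKM (SD over 16 clutches), to NDUFA7, an accessory subunit of complex I, with 81.3 ± 13.7 FPKM. COX7C lay above 99.5% and NDUFA7 above 94.5% of the 21028 gene models detected in 2 or more clutches. UQCRQ, a small subunit of complex III, came second with 529 ± 87.8 FPKM, and it was below COX7C and above COX6A2 in all 16 clutches. COX6A2, which in mammals is the isoform of heart and skeletal muscle, had 319 ± 71.04 FPKM. NDUFA4 (1 of 2) had 315 ± 35.4 FPKM, and neither of these neighbours stood above the other, since COX6A2 was the higher of them in 8 of 16 clutches. NDUFAB1, the mitochondrial acyl carrier protein that is also a subunit of complex I, followed with 205 ± 28.5 FPKM. COX5B had 166 ± 18.5 FPKM, less than NDUFAB1 in all 16 clutches. COX5B and NDUFB8, with 155 ± 25.1 FPKM, were not separated, COX5B being the higher in 11 clutches. The accessory subunit NDUFB9 had 110 ± 13.2 FPKM. COX4I2, an isoform of cytochrome c oxidase subunit 4 that responds to oxygen in mammals, had 100.3 ± 40.0 FPKM and overlapped with both of its neighbours in the order, being below NDUFB9 in 12 clutches and above NDUFA7 in 10.

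Nuclear subunit transcripts were not at 1 level within a complex. Within complex IV, the mean of COX7C on FPKM was higher than that of the mitochondrial gene COX1 in both groups. The other 4 nuclear complex IV genes lay between 100.3 and 319 FPKM. COX1 had 876 ± 169 FPKM in control embryos and 1236 ± 310 FPKM in maternally-stressed embryos (SD, n = 8 clutches per group). The mitochondrial gene COX2 had 2029 ± 406 FPKM in control embryos, where COX7C had 2184 ± 193 FPKM. In maternally-stressed embryos COX2 had 3569 ± 801 FPKM and COX7C 2348 ± 249 FPKM. On CPM, which is not per length, COX7C was far below both, with 185 in control and 220 in maternally-stressed embryos. There COX1 had 2156 and 3270 CPM, and COX2 1550 and 2905 CPM. Where COX7C stood above these mitochondrial genes, it therefore did so only on the scale per length.

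The subunit genes lie apart in the genome. In BROADS1 coordinates from the files, NDUFB8 (ENSGACG00000002420) is on linkage group V from 860773 to 863243, NDUFA7 (ENSGACG00000008635) on VIII from 9776572 to 9777916 and NDUFB9 (ENSGACG00000009532) on X from 14667160 to 14669696. NDUFA4 (1 of 2) (ENSGACG00000009661, 7346387 to 7349024) and NDUFAB1 (ENSGACG00000014330, 14789820 to 14792683) are both on XI. UQCRQ (ENSGACG00000018187) is on IV from 11845926 to 11847057 and COX4I2 (ENSGACG00000004286) on XII from 3811770 to 3815986. COX7C (ENSGACG00000010223, 10265296 to 10266707) and COX6A2 (ENSGACG00000012630, 14726718 to 14728947) share XIII, and COX5B (ENSGACG00000001933) is on the unplaced scaffold_176 from 123951 to 125436. None of the 10 loci overlapped another gene model of the files (0 overlaps each). The name NDUFA4 (1 of 2) says that the annotation holds a second copy, and reads of near-identical copies may be split between them, so its level is uncertain.

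The comparison of maternally-stressed with control embryos asked how far each subunit gene differed between clutches of exposed and unexposed mothers. All 10 were higher on average in maternally-stressed embryos on both scales. The choice of genes had fixed this direction on the scale of the program that listed each gene, and the other scale was not independent of it. On logCPM the log2 fold changes ran from 0.22 to 0.49 with a median of 0.32, and on FPKM from 0.02 to 0.42 with a median of 0.23. The median over all genes was -0.05 on logCPM and -0.08 on FPKM. With median-of-ratios scaling, which sets each clutch by its typical gene in place of its total, the median of the 10 genes was 0.41 on logCPM and 0.38 on FPKM, so the gap between the scales was narrower, and the median over all genes moved up by 0.06 and 0.09. In none of the 10 (0 on each scale) did every maternally-stressed clutch lie above every control clutch, a pattern held by 0.0229% of all genes on logCPM and 0.00951% of gene models on FPKM. Log2 fold changes on logCPM include the moderating prior of the deposited values, and those on FPKM a pseudocount of 1.

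**Figure D1:**
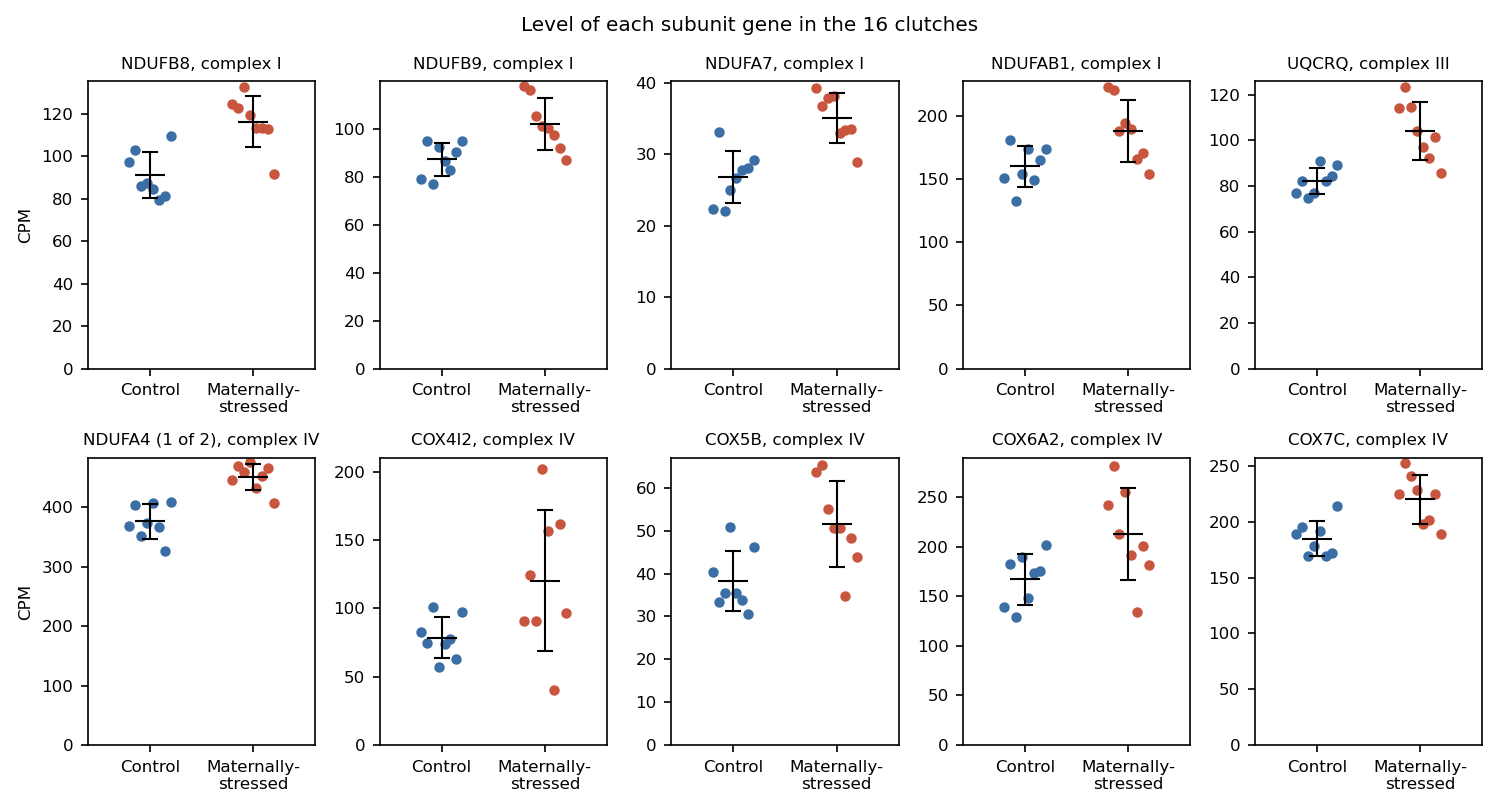
CPM of each of the 10 nuclear subunit genes (y axis, from 0) in the 8 control clutches (blue) and the 8 maternally-stressed clutches (red), with bars for mean and SD. The groups overlap in every gene, and COX4I2 in maternally-stressed embryos spreads from 40.0 to 202 CPM.

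Among the complex I genes, NDUFB8 ran from 91.7 to 132 CPM (median 116) among maternally-stressed clutches and from 79.2 to 109 CPM (median 86.7) among control clutches. In 7 of 8 maternally-stressed clutches it was above every control clutch, and clutch 8_10 alone lay within the control range. The log2 fold change was 0.35 (SE 0.08) on logCPM and 0.30 (SE 0.09) on FPKM.

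NDUFA7 had 28.9 to 39.3 CPM (median 35.1) among maternally-stressed clutches and 22.1 to 33.2 CPM (median 27.3) among control clutches. Clutches 8_10 and 26_28 fell within the control range, and control clutch 15_14 was the highest control. Its log2 fold changes, 0.36 (SE 0.08) on logCPM and 0.34 (SE 0.09) on FPKM, differed little between the scales.

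NDUFB9 ranged from 86.8 to 118 CPM (median 100.8) among maternally-stressed clutches and from 76.9 to 95.1 CPM (median 88.5) among control clutches. NDUFAB1 ranged from 154 to 222 CPM (median 188) against 132 to 181 CPM (median 159). For both genes clutch 8_10 was the lowest and 10_5 the highest of the maternally-stressed clutches, and 15_2 the lowest and 15_14 the highest of the controls. The log2 fold change of NDUFB9 was 0.22 (SE 0.07) on logCPM and 0.15 (SE 0.08) on FPKM. That of NDUFAB1 was 0.23 (SE 0.08) on logCPM and 0.15 (SE 0.09) on FPKM, the latter 0.10 without control clutch 15_2.

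UQCRQ, for complex III, had 85.4 to 123 CPM (median 103) among maternally-stressed clutches and 74.6 to 90.9 CPM (median 82.1) among control clutches. Clutch 8_10 was again the only maternally-stressed clutch inside the control range. The log2 fold change was 0.32 (SE 0.07) on logCPM and 0.28 (SE 0.09) on FPKM.

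In complex IV, NDUFA4 (1 of 2) had the smallest spread relative to its level in maternally-stressed embryos, with 407 to 475 CPM (median 455) among maternally-stressed clutches and 327 to 409 CPM (median 371) among control clutches. In 7 of 8 maternally-stressed clutches it was above every control clutch. The log2 fold change was 0.26 (SE 0.05) on logCPM and 0.20 (SE 0.07) on FPKM.

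COX7C ran from 189 to 253 CPM (median 225) among maternally-stressed clutches and from 169 to 215 CPM (median 184) among control clutches. Clutches 8_10, 26_28 and 3_10 were within the control range. The difference was smaller on FPKM, with a log2 fold change of 0.10 (SE 0.08) against 0.25 (SE 0.07) on logCPM. Without clutch 14_28 the change on FPKM was 0.07, and with median-of-ratios scaling it was 0.26.

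COX6A2 had 135 to 282 CPM (median 207) among maternally-stressed clutches and 129 to 202 CPM (median 175) among control clutches. The highest clutch was 14_28, and clutch 3_10 was lower than all but 1 control clutch, 15_2. The log2 fold change was 0.32 (SE 0.12) on logCPM and 0.26 (SE 0.14) on FPKM.

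COX4I2 was the most variable of the 10 genes in maternally-stressed embryos, from 40.0 to 202 CPM (median 111), against 57.4 to 101 CPM (median 76.4) among control clutches. Clutch 24_28 with 202 CPM, 6_21 with 162.2 CPM, 26_28 with 157 CPM and 14_28 with 124 CPM were above every control clutch, while 3_10 with 40.0 CPM was below every control clutch. The log2 fold change of 0.49 (SE 0.23) on logCPM was 0.69 (SE 0.16) without clutch 3_10 and 0.27 (SE 0.28) with the structured RNA level as a covariate. This level was above 0 in 24_28 and 26_28 and below 0 in 6_21 and 14_28, and its part in the difference was not tested further.

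COX5B differed most between the scales. On CPM it had 34.7 to 65.2 (median 50.6) among maternally-stressed clutches and 30.6 to 50.9 (median 35.5) among control clutches, with a log2 fold change on logCPM of 0.40 (SE 0.12). On FPKM it had 146 to 215 (median 165) among maternally-stressed clutches and 133 to 183 (median 170) among control clutches, with a log2 fold change of 0.02 (SE 0.08). Only clutch 14_28 was above every control clutch on FPKM, and only 2 maternally-stressed clutches were above the control median. Without clutch 14_28 the log2 fold change on FPKM was -0.03, and without control clutch 15_2 it was -0.02. With median-of-ratios scaling it was 0.18. The study listed COX5B as higher from Cuffdiff too, and why the deposited FPKM values differ so little between the groups was not tested.

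**Figure D2:**
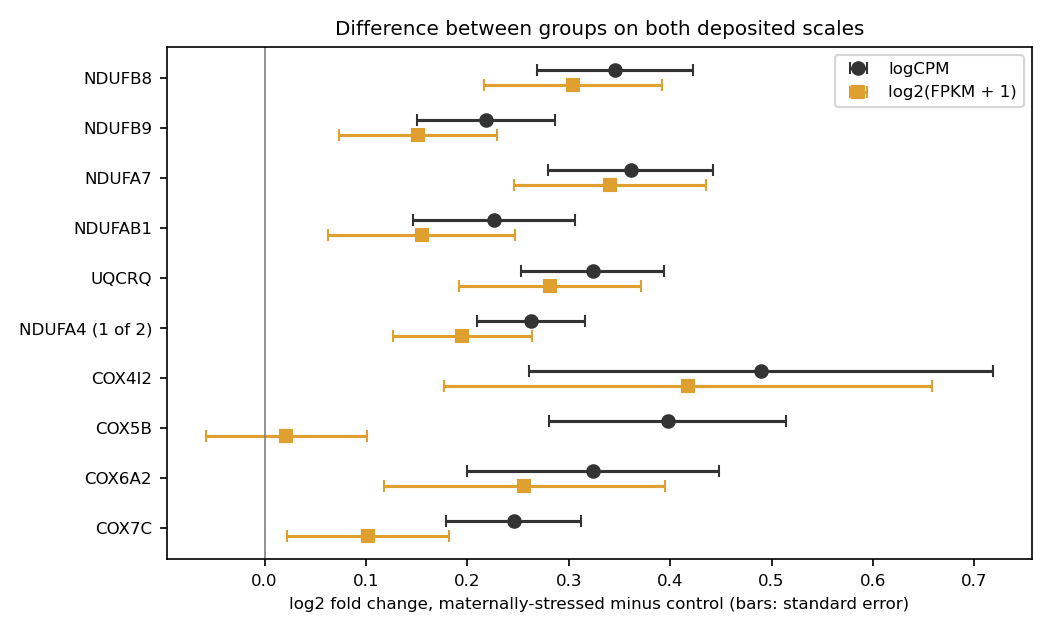
Log2 fold change of each subunit gene, maternally-stressed minus control (x axis), on logCPM (circles) and on log2(FPKM + 1) (squares), with standard errors from limma over 8 clutches per group. The values on FPKM are the smaller in all 10 genes, and COX5B falls from 0.40 to 0.02.

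The ratio of FPKM to CPM in a clutch shows where the scales part. Over 14390 genes its median was lowest in clutch 10_5, at 0.877 of the mean over clutches, and in 24_28, at 0.911. These clutches had the highest structured RNA levels, 1.99 and 1.47. NDUFAB1, NDUFB9, NDUFA4 (1 of 2) and COX6A2 followed this median within 0.03 on the log2 scale in every clutch, and 9 of the 10 genes within 0.15. COX5B departed from it by up to 0.37. Its ratio was 2.67 to 4.21 (median 3.30) among maternally-stressed clutches and 3.60 to 5.11 (median 4.38) among control clutches. The 2 deposited scales therefore did not measure the COX5B gene model alike, and its difference between groups is uncertain.

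**Figure D3:**
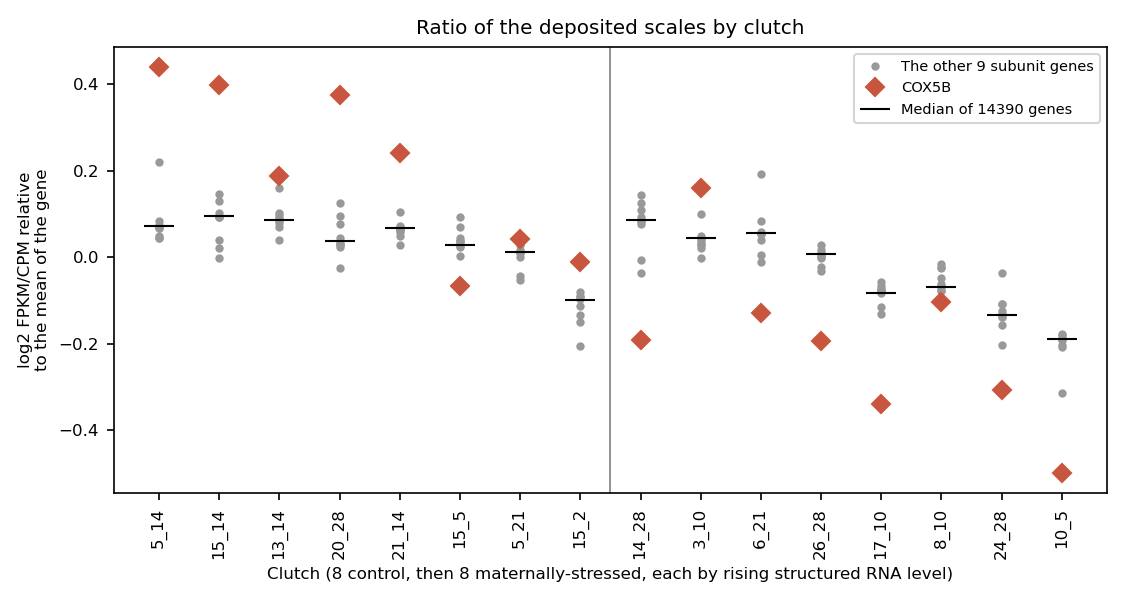
Log2 ratio of FPKM to CPM relative to the mean of each gene (y axis) in the 16 clutches (x axis), for COX5B (diamonds), the other 9 subunit genes (points) and the median of 14390 genes (bars). The 9 genes stay near the median, and COX5B departs from it by up to 0.37.

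The same clutches were high or low across the subunit genes. Among maternally-stressed clutches 8_10 was the lowest in 7 of 10 genes and 3_10 in the other 3 (COX5B, COX4I2 and COX6A2), all of complex IV. Clutch 14_28 was the highest in 4 genes on CPM and in 8 on FPKM. Among controls 15_2 was the lowest in 5 genes on CPM and in 8 on FPKM, and 5_21 the highest in 4 genes on CPM. The CPM of all 10 genes together was 1364 to 1814 (median 1624) among maternally-stressed clutches and 1179 to 1465 (median 1265) among control clutches. Clutch 14_28, the highest, had the lowest structured RNA level of its group (-0.72), and clutch 15_2, the lowest, had the highest of its group (0.49). Clutch 10_5, with the highest structured RNA level of all, was also high in the subunit genes, at 1685 CPM.

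Covariation of the genes was described after each group was centred on its own mean, so that the group means did not enter. A level that varies both between and within groups could still enter the choice of genes and these correlations alike. The correlations are therefore not independent of the choice in that respect. The points are 16 clutches, and the genes in a clutch share its library total. Over the 45 pairs the median Pearson r was 0.57, and 44 pairs were positive. Each of the 10 genes tended the other way with the rest of the genome, its median r with 15994 genes of at least 1 CPM lying between -0.39 and -0.19. NDUFB9 and NDUFAB1, both of complex I, had the highest r at 0.91 (Spearman rho 0.90), followed by NDUFAB1 and UQCRQ with 0.84 and NDUFB8 and COX7C with 0.83. The 6 pairs within complex I had a median r of 0.71, the 10 pairs within complex IV 0.39 and the 29 pairs across complexes 0.55. The median within complex IV was thus below that across complexes, and 4 of its 10 pairs involved COX4I2.

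COX4I2 stood apart from the other 9 genes. Its r with them ran from -0.10, with NDUFB9, to 0.44, with a median of 0.17, and its r with their mean was 0.22. For the other genes, r with the mean of the remaining 9 ran from 0.60 for COX5B to 0.87 for COX7C. With median-of-ratios scaling the median over the 45 pairs was 0.81, and the r of COX4I2 with the others was 0.32 to 0.58. The typical gene took a different share of the total in each clutch, its size factor relative to the total running from 0.877 in 14_28 to 1.13 in 15_5 and in 3_10.

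Within maternally-stressed embryos the median r over the 45 pairs was 0.74 with 44 positive, and within control embryos it was 0.42 with 36 positive (n = 8 clutches each). The difference between these medians was not tested. All 9 negative pairs in controls involved COX4I2, which was positive with 3 of 9 genes, or COX5B, which was positive with 5 of 9. Leaving these genes out, all 28 pairs of the other 8 genes were positive in each group, with medians of 0.78 and 0.56.

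**Figure D4:**
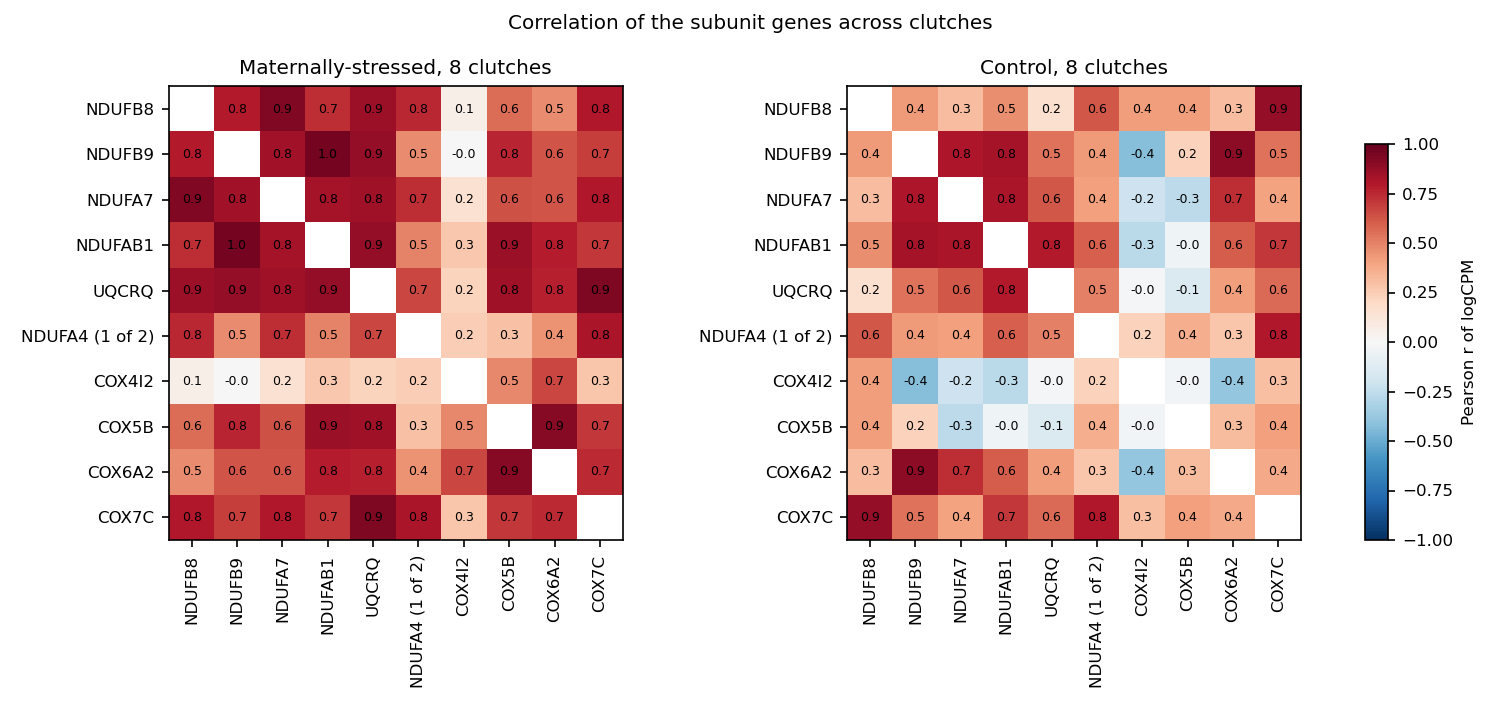
Pearson r of logCPM for each pair of subunit genes across the 8 maternally-stressed clutches (left) and the 8 control clutches (right), on a colour scale from -1 to 1. In the left panel the row of COX4I2 is pale except with COX6A2 (0.67) and COX5B (0.48), and in the right panel it is partly below 0, where COX5B also holds negative values.

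The genes most like the subunit genes were searched among 17430 other genes by their r with the mean z-score of the 10 genes, over 16 clutches centred by group. The median r over all genes was -0.37 and 24.4% were above 0. The 10 most alike had r between 0.91 and 0.95 and were abundant, at 187 to 2260 CPM. None of the 10 is named by the study's list (0 named). The closest were ENSGACG00000013304, with r = 0.95 and 524 CPM, and ENSGACG00000013005, with r = 0.94 and 187 CPM. Of genes that the list names, chosen after the values were seen, UBE2C, a ubiquitin-conjugating enzyme of the cell cycle, was rank 12 with r = 0.90, and RPS24, a protein of the small ribosomal subunit, was rank 13 with r = 0.90.

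Transcripts of the mitochondrial genome were summed as a second level. The 16 genes at mitochondrial loci on the logCPM scale summed to 6462 to 18890 CPM (median 10653) among maternally-stressed clutches and 5688 to 8399 CPM (median 6726) among control clutches. The lowest maternally-stressed clutch was 3_10, within the control range, and the highest was 10_5. The study names 7 of these genes: ND1 and ND3 of complex I, CYTB of complex III, COX1, COX2 and COX3 of complex IV and ATP6 of ATP synthase. Each of them was lowest in clutch 3_10 among maternally-stressed embryos. What the unnamed genes encode was not determined, so the sum over 16 genes does not measure complexes I, III and IV alone. The named part also varied. It was 14398 of 18890 CPM in 10_5, which had the highest structured RNA level of its group. In 14_28, which had the lowest, it was 8215 of 9178 CPM. Among maternally-stressed clutches 10_5 and 24_28 were the highest in both the sum over 16 genes and the structured RNA level. Clutches 3_10 and 14_28 were low in structured RNA (-0.69 and -0.72), with sums of 6462 and 9178 CPM. Clutch 8_10 went the other way, with 0.98 and 8991 CPM. How far the 2 levels can be told apart in the slopes below was not tested beyond a covariate.

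The ratio of nuclear to mitochondrial subunit transcripts had a lower median in maternally-stressed embryos. The CPM of the 10 nuclear genes was 0.117 to 0.239 of that of the 7 named mitochondrial genes in maternally-stressed clutches (median 0.182) and 0.190 to 0.271 among control clutches (median 0.223). Clutch 10_5 had the lowest ratio and 3_10 the highest among maternally-stressed clutches, and 4 of 8 were below every control clutch. For complex IV alone, the 5 nuclear genes had a median of 0.167 of COX1, COX2 and COX3 together among maternally-stressed clutches and 0.203 in control embryos. For complex I, the 4 nuclear genes had a median of 1.26 times ND1 and ND3 among maternally-stressed clutches and 1.65 times in control embryos, and 5 of 8 maternally-stressed clutches were below every control clutch. Genes on both sides of these ratios came from the study's list, so they are a description.

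Whether the nuclear genes followed the mitochondrial level within a group was tested on values centred by group, so that the group means, which chose the genes, did not enter. Nuclear and mitochondrial genes were taken from the same clutches and the same list, so a level that varies both between and within groups could enter the choice and the slope alike, and the test is not independent of the choice in that respect. The logCPM of every gene outside the mitochondrial genome was fitted on the log2 of the summed mitochondrial CPM, centred within each group, with group in the model (limma, two-sided, Benjamini-Hochberg over 17424 genes, threshold 0.1). All 10 subunit genes had a positive slope, between 0.08 and 0.60 log2 units for each doubling of the mitochondrial level, where 26.1% of all genes had one and the median slope was -0.15. Of the 10 genes 2 passed the threshold, against 3.35% of all genes that passed with a positive slope and 24.9% with a negative one.

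The genes that passed were NDUFAB1, with a slope of 0.31 (SE 0.10, adjusted p = 0.0440 from limma), and COX6A2, with a slope of 0.47 (SE 0.16, adjusted p = 0.0463 from limma). NDUFA7 had a slope of 0.25 (adjusted p = 0.111 from limma), UQCRQ 0.21 (adjusted p = 0.115 from limma) and COX5B 0.36 (adjusted p = 0.105 from limma). NDUFB9 had 0.20 (adjusted p = 0.132 from limma). NDUFB8 with 0.16, COX7C with 0.14, NDUFA4 (1 of 2) with 0.08 and COX4I2 with 0.60 (SE 0.32) also did not pass. COX4I2 had the steepest slope of the 10 genes and its standard error was the widest.

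These calls rested on clutch 3_10. Without it no gene passed with a positive slope (0 of 17424) and 1 passed with a negative one, the slope of NDUFAB1 was 0.35 (adjusted p = 0.208 from limma), that of COX6A2 was 0.27 (adjusted p = 0.446 from limma), that of COX5B was 0.18 (adjusted p = 0.635 from limma), and that of COX4I2 turned to -0.11 (adjusted p = 0.865 from limma). Not all slopes fell without 3_10. Those of NDUFB8 (0.23), NDUFA7 (0.34), NDUFB9 (0.26) and NDUFA4 (1 of 2) (0.13) rose, as did that of NDUFAB1. Those of UQCRQ (0.21) and COX7C (0.13) hardly moved. Without clutch 10_5 the slope of COX4I2 was 1.26 and passed the threshold. In that fit 2 of the 10 genes passed, as in the main fit, so NDUFAB1 and COX6A2 did not both pass. Over all genes 387 of 17424 passed there with a positive slope. Without clutch 14_28, 6 of the 10 genes passed, against 4.81% of all genes with a positive slope. Slopes of the 9 genes other than COX4I2 stayed positive without any single clutch. With median-of-ratios scaling all 10 genes passed, against 16.4% of all genes that passed with a positive slope. In that setting 46.8% of all slopes were positive, and those of the 10 genes ran from 0.27 for NDUFA4 (1 of 2) to 0.75 for COX4I2. There each gene and the mitochondrial sum are divided by the same factor per clutch, as both are by the library total in the main fit. How much a shared factor adds to the slopes was not tested. Over the 7 named mitochondrial genes in place of all 16, an alternative chosen after seeing the data, 6 of the 10 passed (3.74% of all genes), with the structured RNA covariate 6 passed (3.39%), and with clutch weights 0 passed (0.442%).

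**Figure D5:**
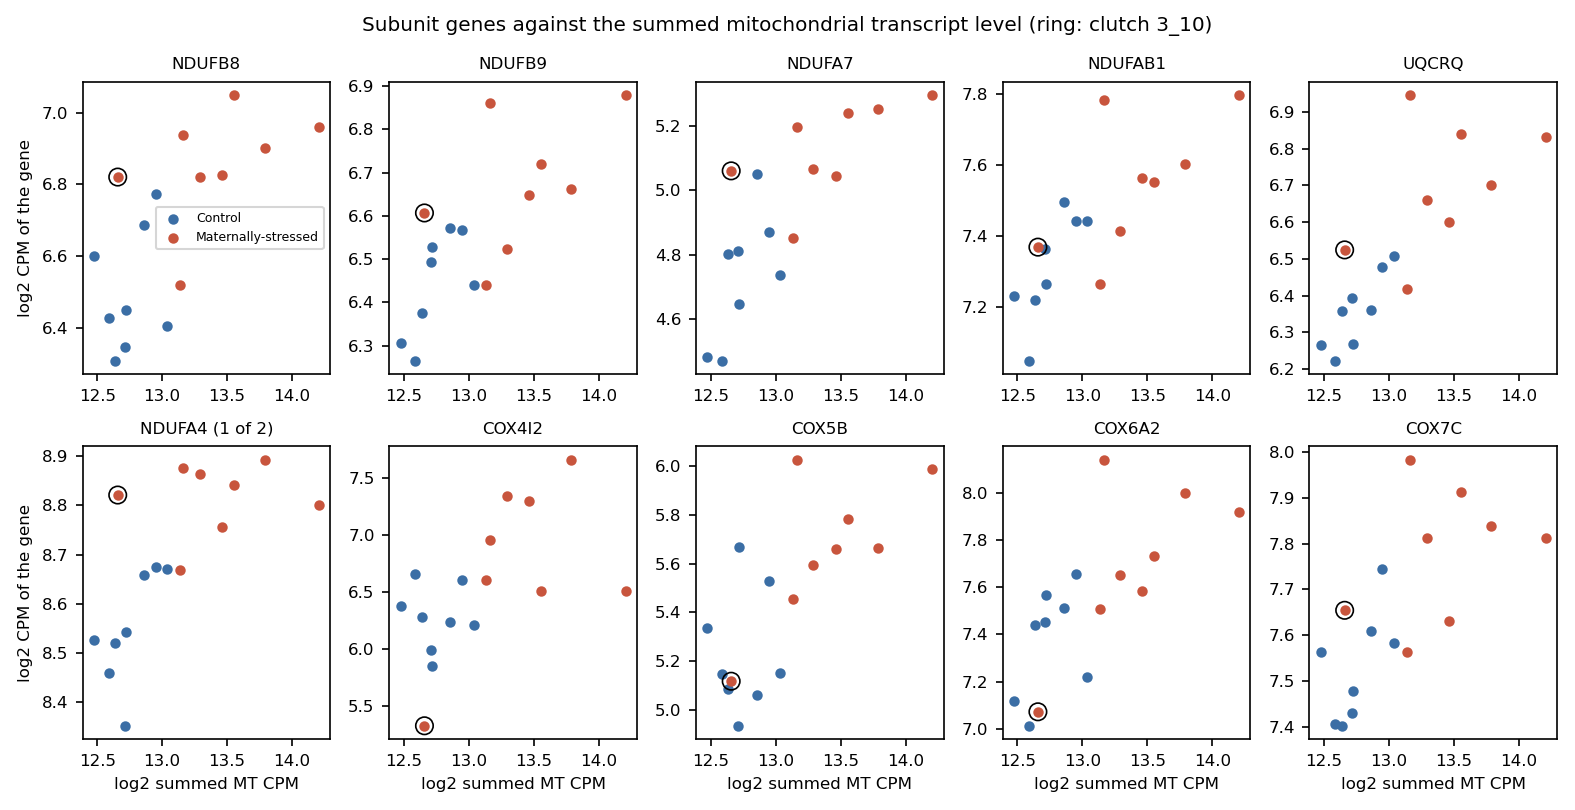
Log2 CPM of each subunit gene (y axis) against the log2 of the summed CPM of mitochondrial genes (x axis) in 8 control clutches (blue) and 8 maternally-stressed clutches (red), with clutch 3_10 ringed. Clutch 3_10 has the lowest mitochondrial level of its group, 6462 CPM, and is the lowest clutch of its group in COX4I2, COX5B and COX6A2.

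Within control embryos alone, r with the mitochondrial level was 0.86 for UQCRQ (Spearman rho 0.86, n = 8 clutches), 0.80 for NDUFAB1 (rho 0.81) and 0.69 for NDUFB9 (rho 0.71). For COX5B it was 0.05 (rho 0.14). For COX4I2 it was -0.07 (rho -0.36), and -0.34 (rho -0.48) with the level of the 7 named mitochondrial genes. Without the 2 control clutches farthest from the median mitochondrial level, r was 0.76 for UQCRQ and 0.88 for NDUFAB1. Within maternally-stressed embryos COX5B had the highest r of the 10 genes, 0.69, which was -0.02 without the 2 farthest clutches. The slopes of the groups were not shown to differ for any of the 10 genes. The difference of slopes, maternally-stressed minus control, ran from -0.41 (SE 0.31) for NDUFA7 to 0.82 (SE 0.92) for COX4I2. By limma, 0 of 17424 genes passed the threshold for this difference (0.0% called). Genes at an unadjusted p under 0.05 numbered 511, a smaller share than the 0.05 that chance alone would give.

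With the named mitochondrial genes taken singly, all 70 correlations with the nuclear genes were positive (group-centred, 16 clutches). For 7 of the 10 nuclear genes the mean r was higher with mitochondrial genes of the same complex than with those of other complexes, and for NDUFA7, NDUFB9 and NDUFAB1, all of complex I, it was lower. The widest gap in favour of the same complex was that of NDUFA4 (1 of 2), with a mean r of 0.42 against 0.28. The median gap over the 10 genes was only 0.016. Taken over pairs, the median r was 0.49 for the 24 pairs of the same complex and 0.51 for the 46 others. These means share the same 16 clutches and their differences were not tested. CYTB had the highest median r with the 10 nuclear genes, 0.62, and COX3 the lowest, 0.48.

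COX6A2, a muscle isoform in mammals, had no common direction with the muscle genes. Of 7 muscle genes that the study names, 3 had a positive group-centred r with COX6A2, and the median was -0.44. Over all genes 26.2% had a positive r with COX6A2, and the median was -0.31. The lowest r was -0.70, with tnnt2d, a troponin T, and the highest 0.36, with titin-like, the sarcomere spring protein. The summed CPM of the 7 muscle genes was 203 to 361 among maternally-stressed clutches and 170 to 234 among control clutches, and none was at 0 in any clutch (0 genes). These genes came from the study's list of genes that differ between the groups, so the sums are a description. The r of COX6A2 with the 3 erythroid genes was positive for all 3, from 0.04 to 0.32. Of 13 lens genes none had a positive r with COX6A2 (0 of 13), where 26.2% of all genes had one. Likewise none of the lens genes was positive with 7 of the 10 subunit genes, COX6A2 among them. Most of the 13 are related gamma crystallins with similar r with COX6A2, from -0.45 to -0.22. They do not count as 13 separate observations beside the share over all genes. The lowest median r with the lens genes was that of COX5B, -0.53, where the median over all genes was -0.20. That of COX6A2 was -0.38, also below its median over all genes. For every other subunit gene the median with the lens genes was above that over all genes, as for NDUFAB1 with -0.23 against -0.39. The part of tissue composition in the levels of the subunit genes was not tested.

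The structured RNA level had no single direction with the subunit genes. Among maternally-stressed clutches its r with them had a median of 0.21 and was positive in 8 of 10 genes, whereas among control clutches the median was -0.42 and 1 gene, COX4I2, was positive. Spearman rho in controls had a median of -0.07 with 4 genes positive, and clutch 15_2 was the only control clutch above 0 in this level. With both groups centred and pooled, r ran from -0.20 for NDUFA4 (1 of 2) to 0.30 for COX4I2 with a median of 0.02, and the median was -0.33 without the 2 clutches farthest from the median level. Leaving out 1 clutch moved it from -0.18, without 10_5, to 0.23, without 14_28. The difference between the groups was not tested. Without the 6 clutches above 0, an alternative chosen after seeing the data, the median log2 fold change of the 10 genes was 0.30 on logCPM and 0.25 on FPKM.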

How the data were processed

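RNA was selected with oligo(dT) and sequenced with 1 library per clutch. The authors aligned trimmed reads to BROADS1 with TopHat2 2.0.8 and deposited log2 CPM values of reads in Ensembl genes, made with edgeR with a moderating prior equal to 2.77 CPM, and FPKM values from Cufflinks 2.1.1 for 22456 gene models. CPM was taken from whole reads recovered from the deposited logCPM values to within 3.8e-09 of a read. Where a gene has no read, counting error alone permits 3 reads, which is 0.235 to 0.335 CPM. No column of other samples was present.

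Groups were taken from the labels. All genes were fitted in R 4.3.3 with limma 3.58.1 (lmFit, eBayes with an intensity trend): logCPM on group, then on group and the centred mitochondrial level, then with their interaction, and log2(FPKM + 1) on group over the 21028 models above 0 in at least 2 clutches. The logCPM fits were tested on simulated data in which genes varied independently and no clutch was set apart. The fit on FPKM and the correlations were not tested in this way. Correlations were computed with numpy 2.4.6 and pandas 2.3.3, and figures drawn with matplotlib 3.10.9.

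The 10 genes, the gene lists and the tests were chosen with earlier results of these data known. Named are these 10 genes, the mitochondrial genes the study names and the 10 genes most alike. Clutches, markers and other genes named beyond these were picked with their values in view. The files hold IDs alone, and names come from the study's gene list. Of 12 lists of respiratory chain genes and markers (203 symbols), complexes I, III and IV matched only the 10 genes themselves. Complexes II and V, electron carriers, assembly factors and regulators matched none (0 each), the muscle list matched 7 gene IDs, the heart list 1 (tnnt2d), the erythroid list 3 and the lens list 13. The summed CPM of the erythroid list was 2937 to 4631 in maternally-stressed and 1610 to 3660 in control embryos, of the lens list 538 to 1907 and 580 to 1221, and tnnt2d had 5.15 to 17.1 and 3.99 to 11.4. All these marker genes came from the study's list of genes that differ between the groups in these clutches, so the ranges are a description. The rest of the 12 lists and gene sequences were not analysed here.

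Alternatives were a prior of 0.5 reads, median-of-ratios scaling, totals without mitochondrial genes, a minimum of 1 CPM or 1 FPKM, voom, clutch weights, the structured RNA covariate, a block by the last number in the clutch name, a pseudocount of 0.1, an FDR of 0.05, other mitochondrial levels, Spearman rho and each clutch left out.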

Additional observations from a re-analysis of the deposited data

Results flagged for a closer look

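UQCRQ in clutch 14_28 had 774 FPKM, far above the next maternally-stressed clutch with 594 FPKM. COX5B in clutch 14_28 had 215 FPKM, with the next clutch at 170 FPKM. On CPM neither gene set this clutch apart to that degree. The structured RNA level of control clutch 15_2 was 0.49, and the next control clutch was at -0.55. Of 44 groups of 8 clutches examined in this way 3 had such a clutch, and chance gives about 1 in 20.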

How the results depend on the processing

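All 10 log2 fold changes on logCPM were positive under every alternative run, and on FPKM all but COX5B, which ran from -0.032, without maternally-stressed clutch 14_28, to 0.048 with 1 clutch left out, and was -0.022 without control clutch 15_2. The median over the 10 genes was 0.27 to 0.36 on logCPM and 0.17 to 0.26 on FPKM when 1 clutch was left out. Median-of-ratios scaling moved the median of all genes on logCPM up by 0.06, and gave medians over the 10 genes of 0.41 on logCPM and 0.38 on FPKM. With a replicate block by the last number in the clutch name the median on logCPM was 0.33. NDUFAB1 and COX6A2 were again the 2 of the 10 genes past the threshold on the mitochondrial level. Over all 17424 genes, 587 passed in that fit with a positive slope and 4339 with a negative one. The last numbers in the clutch names are not known to pair clutches. Control clutches 13_14, 15_14, 21_14 and 5_14 share a last number, and maternally-stressed clutches 17_10, 3_10 and 8_10 share another. Each of these numbers occurs in 1 group alone, so there the block cannot be told apart from treatment.

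The association with the mitochondrial level depended on the processing. The number of the 10 genes past the threshold was 10 with median-of-ratios scaling, 6 with the structured RNA covariate, 6 over the named mitochondrial genes, 10 over these genes with median-of-ratios scaling, 0 with clutch weights, 0 without the clutches above 0 in structured RNA, and 0 to 6 with 1 clutch left out, with 0 without 3_10 and 6 without 14_28. Over all genes, positive slopes past the threshold were 591 with the structured RNA covariate and 652 over the named mitochondrial genes. They were 273 at FDR 0.05, 2864 with median-of-ratios scaling, 3042 with that and the named mitochondrial genes and 77 with clutch weights. Positive slopes past it were 343 with the mitochondrial level on FPKM and 2 without the clutches above 0 in structured RNA. With 1 clutch left out they were 0 to 838 (387 without 10_5). Negative slopes were 2471, 2764, 768, 2067 and 0 at FDR 0.05, with median-of-ratios scaling, with clutch weights, with the level on FPKM and without those clutches, and 1 to 6085 with 1 clutch left out. The slope of COX4I2 ran from -0.11, without clutch 3_10, to 1.26 with 1 clutch left out. The difference of slopes passed in 13 genes, none of the 10, without the clutches above 0 in structured RNA. The cause of these changes was not tested. The median r over the 45 pairs was 0.81 with median-of-ratios scaling and 0.47 to 0.65 with 1 clutch left out, and the median r with structured RNA was -0.18 to 0.23 with 1 clutch left out. Comparisons of the complete lists of respiratory chain genes were not run. Alternatives over named mitochondrial genes and without the clutches high in structured RNA were added after seeing the data.

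With 8 clutches per group and 1 library per clutch, the mitochondrial level spans a narrow range in control embryos, so slopes there are imprecise.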
